A study of Mus musculus with 6 samples.

Results

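Caveolins and cavins build caveolae, and the genes described here are Cav1, Cav2, Ptrf, Sdpr, Prkcdbp and Ehd2. These 6 genes were taken by symbol from the 23284 symbols of the count table, where the cavins stand under older names: Ptrf is Cavin1, Sdpr is Cavin2 and Prkcdbp is Cavin3. The study sequenced RNA of esophageal epithelium from E12.5 mouse embryos. The p63KO group held 3 samples homozygous for the Trp63-CreERT2 allele, and the control group held 3 samples from littermates. Trp63-CreERT2 places a tamoxifen-inducible Cre recombinase in the gene of p63, the transcription factor of stratified epithelia. The labels call the littermates controls, and WT in the titles, without naming their alleles, and do not say whether a sample is 1 embryo or a pool, so errors describe the spread between these samples. The genes were chosen with their difference between p63KO and control known, so that difference is given as values with errors and no test, while other genes were tested.

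Caveolae are small flask-shaped pits of the plasma membrane that buffer membrane tension, take up cargo and hold signalling receptors. Caveolins are hairpin proteins of the inner membrane leaflet that assemble with cholesterol, cavins form a coat on their cytoplasmic side, and the ATPase EHD2 sits at the neck and holds the pit at the surface. Endothelium, smooth muscle and fat cells are rich in caveolae, and basal cells of stratified epithelia also carry them.

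Total counts lay between 13335328 and 16506401 in p63KO and between 16948971 and 20093838 in control. Trp63 was 71.4 ± 8.03 CPM (counts per 1000000 counts of the library, scaled by TMM) in p63KO and 602.9 ± 63.9 CPM in control (SD, n = 3 each), and each library matched its label. The epithelial label was met by high RNA of Epcam, an epithelial adhesion molecule, at 947.3 CPM in p63KO and 851.2 CPM in control. The 13 listed epithelial markers summed to between 5306 and 5403 CPM in p63KO and between 5943 and 6063 CPM in control. That list includes Trp63 itself and the keratin gene Krt5, which was 6.95 CPM in p63KO and 233.6 CPM in control, so the sums also carry these differences. Of the 13 markers, 4 rose, 5 fell and 4 did not pass the test described next. Those that fell were Trp63, Krt5, Cdh1, Cldn4 and Grhl2, and those that rose were Krt8, Krt18, Krt19 and Cldn6. Cdh1 was 684.0 CPM in p63KO and 904.8 CPM in control. Of 13849 genes tested with the edgeR quasi-likelihood test, 29.6% changed at an adjusted p under 0.05, with 15.3% higher and 14.3% lower in p63KO. All 6 caveola genes passed the filter on low counts.

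The sequences before the transcription start of the genes that were lowest in p63KO, Cav1, Cav2 and Ehd2, are shown with that of Sdpr, whose groups overlapped. Each is the 250 bases before an annotated start, 5′ to 3′, from RefSeq on GRCm38.p6; the count table was made on the older build mm9, and no coordinate of it was used. Of the 6 genes, 5 matched the promoter table, with separate starts listed for Cav1 and for Ptrf, which gave 7 windows. Cav1 and Cav2 lie next to each other on chromosome 6 with no other protein-coding gene between them. Capitals mark matches, on either strand, to the AP-1 letters TGANTCA, the GC box GGGCGG, the CCAAT box CCAAT, the TATA box TATAAA, the TEAD letters GGAATG or the p53 family half-site.
Cav1, upstream start, chr6:17306085-17306334, plus strand: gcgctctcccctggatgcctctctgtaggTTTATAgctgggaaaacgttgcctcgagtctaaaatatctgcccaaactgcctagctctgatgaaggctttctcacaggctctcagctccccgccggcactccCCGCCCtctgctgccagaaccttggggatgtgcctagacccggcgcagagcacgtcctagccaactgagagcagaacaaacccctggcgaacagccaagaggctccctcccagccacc
Cav1, downstream start, chr6:17307390-17307639, plus strand: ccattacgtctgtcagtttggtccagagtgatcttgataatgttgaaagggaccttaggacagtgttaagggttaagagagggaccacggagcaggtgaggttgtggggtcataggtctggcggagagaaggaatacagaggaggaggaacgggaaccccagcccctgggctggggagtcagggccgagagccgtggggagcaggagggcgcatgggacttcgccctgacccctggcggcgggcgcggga
Cav2, chr6:17280935-17281184, plus strand: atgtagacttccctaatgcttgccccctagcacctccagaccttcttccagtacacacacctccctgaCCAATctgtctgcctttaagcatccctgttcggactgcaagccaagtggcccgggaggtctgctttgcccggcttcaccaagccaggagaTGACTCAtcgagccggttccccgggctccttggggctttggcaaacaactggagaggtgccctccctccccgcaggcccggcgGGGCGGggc
Ehd2, chr7:15967536-15967785, minus strand: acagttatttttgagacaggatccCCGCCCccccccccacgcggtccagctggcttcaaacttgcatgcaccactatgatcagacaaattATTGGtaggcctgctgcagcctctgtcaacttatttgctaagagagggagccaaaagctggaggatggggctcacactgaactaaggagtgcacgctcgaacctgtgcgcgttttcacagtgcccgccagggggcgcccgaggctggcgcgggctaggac
Sdpr, chr1:51288876-51289125, plus strand: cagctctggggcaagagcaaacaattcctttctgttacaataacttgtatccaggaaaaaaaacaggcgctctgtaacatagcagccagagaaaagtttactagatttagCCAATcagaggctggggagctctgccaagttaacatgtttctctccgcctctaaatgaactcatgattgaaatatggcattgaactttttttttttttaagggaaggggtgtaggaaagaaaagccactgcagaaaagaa

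Cav2 held TGANTCA between 92 and 86 bases before its start, and it was 1 of the 7 windows that did, against 6.75% of all 32851 annotated windows of that length. A GC box was in 5 of 7 windows, against 32.7% of all windows, and a CCAAT box in 5 of 7, against 33.8%. Both counts include the 2 overlapping windows of Ptrf, where the same matches were counted in each. TATAAA was in 1 of 7 windows, against 12.4% of all windows. It lay on the reverse strand, between 221 and 216 bases before the upstream Cav1 start. The TEAD letters were in 2 of 7, both of them overlapping windows of Ptrf, against 12.6%. The downstream Cav1 window held none of these letters. No window held the p53 family half-site, which 7.13% of all windows did; that says only that these letters are not in these windows. No motif match overlapped another in the windows shown. The windows of Cav1, Cav2, Ptrf and Ehd2 were between 58.0% and 67.6% G and C, while that of Sdpr was 40.4%. The count table does not tell which Cav1 start was used.

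Both caveolin genes were far lower in p63KO. Cav2, whose protein needs Cav1 to leave the Golgi, was 3.72, 3.12 and 4.98 CPM in p63KO libraries 1, 2 and 3, against 80.7, 80.0 and 82.8 CPM in control libraries 1, 2 and 3. The control values lay within a factor of 1.04 of each other, and the groups were far from overlapping. Cav2 averaged 3.94 ± 0.95 CPM in p63KO and 81.2 ± 1.49 CPM in control (SD, n = 3 each). That is 4.85% of the control level and a log2 fold change of -4.37 (SE 0.13), and 59 of the 13849 tested genes had a lower log2 fold change. Since these are bulk samples, fewer cells that express a gene and less RNA per cell cannot be told apart, here and for the genes that follow.

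Cav1, the caveolin without which most cells form no caveolae, was 3.72, 4.57 and 3.79 CPM in p63KO libraries 1, 2 and 3, against 30.3, 20.8 and 26.3 CPM in the control libraries. The groups did not overlap, and control replicate 1 was the highest library. Cav1 averaged 4.03 ± 0.47 CPM in p63KO and 25.8 ± 4.80 CPM in control (SD, n = 3 each). That is 15.6% of the control level and a log2 fold change of -2.68 (SE 0.18). Cav2 thus stood further from control than Cav1 on the log2 scale, which also shows in their ratio. Per kilobase of exon, there were 1.03, 0.704 and 1.36 Cav2 per Cav1 in the p63KO libraries, against 2.75, 3.97 and 3.25 in the control libraries. The ratio averaged 1.03 ± 0.33 in p63KO and 3.32 ± 0.62 in control (SD, n = 3 each), with no overlap.

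Genes beside this pair on chromosome 6 were picked by position. Met, the receptor of hepatocyte growth factor and the next gene after Cav1, fell to 15.7 ± 0.81 CPM in p63KO, against 29.4 ± 7.30 CPM in control (SD, n = 3 each; log2 fold change -0.91, SE 0.17, edgeR adjusted p = 0.0029). Tes, a LIM domain protein of focal adhesions on the Cav2 side, was 184.3 ± 4.84 CPM in p63KO and 167.4 ± 5.42 CPM in control (log2 fold change 0.14, edgeR adjusted p = 0.0998). Capza2, a capping protein of actin filaments beyond Met, was 190.7 ± 16.8 CPM in p63KO and 177.0 ± 5.43 CPM in control (log2 fold change 0.11, edgeR adjusted p = 0.32). Neither Tes nor Capza2 passed the test, and Tfec, next to Tes, had too few counts to test.

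Ehd2, the neck ATPase, was 5.67, 4.29 and 3.64 CPM in p63KO libraries 1, 2 and 3, against 29.4, 28.8 and 31.9 CPM in the control libraries. The groups did not overlap, and the control libraries lay within a factor of 1.11. Ehd2 averaged 4.53 ± 1.03 CPM in p63KO and 30.02 ± 1.67 CPM in control (SD, n = 3 each). Its log2 fold change of -2.72 (SE 0.16) left 15.1% of the control level, close to that of Cav1. The other genes of the EHD family, which act in endosomal recycling, did not pass the test. Ehd1 was 96.96 ± 2.91 CPM in p63KO and 96.9 ± 2.59 CPM in control (SD, n = 3 each), with a log2 fold change of 0.00 (SE 0.06). Ehd3 was at 0.22 (SE 0.17) and Ehd4 at -0.14 (SE 0.09) on the log2 scale.

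The cavins differed among themselves. Ptrf, the coat protein that caveolae cannot form without, was 84.0, 70.4 and 100.8 CPM in p63KO libraries 1, 2 and 3, against 211.4, 135.0 and 149.6 CPM in the control libraries. The groups did not overlap, although p63KO replicate 3 and control replicate 2 came closer, as a ratio, than any such pair did for the caveolins. Ptrf averaged 85.1 ± 15.2 CPM in p63KO and 165.3 ± 40.6 CPM in control (SD, n = 3 each), a log2 fold change of -0.96 (SE 0.18) that left 51.5% of the control level. It stayed the most abundant of the 6 genes in each library.

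Sdpr, the cavin that bends caveolar membrane, was 4.07, 5.82 and 7.43 CPM in p63KO libraries 1, 2 and 3, against 8.49, 4.44 and 5.18 CPM in the control libraries. The groups overlapped, and the spread within each group was larger than the difference between their means. Its log2 fold change was -0.07 (SE 0.30). Prkcdbp, which binds protein kinase C delta, was 8.79, 7.55 and 10.1 CPM in the p63KO libraries, against 9.77, 6.95 and 7.95 CPM in the control libraries. These groups also overlapped, with a log2 fold change of 0.10 (SE 0.19). With 1 library left out, the log2 fold change of Sdpr lay between -0.29 (without p63KO replicate 3) and 0.26 (without control replicate 1) and that of Prkcdbp between -0.01 (without control replicate 2) and 0.24 (without control replicate 1), so neither gene had a stable direction.

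In all, 4 of the 6 genes were lower in each p63KO library than in any control library, where 22.2% of all tested genes were. Cav1, Cav2 and Ehd2 had log2 fold changes under -2, as 2.17% of all tested genes did. Nothing is read from these counts, because the genes were chosen with this difference known.

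**Figure D1:**
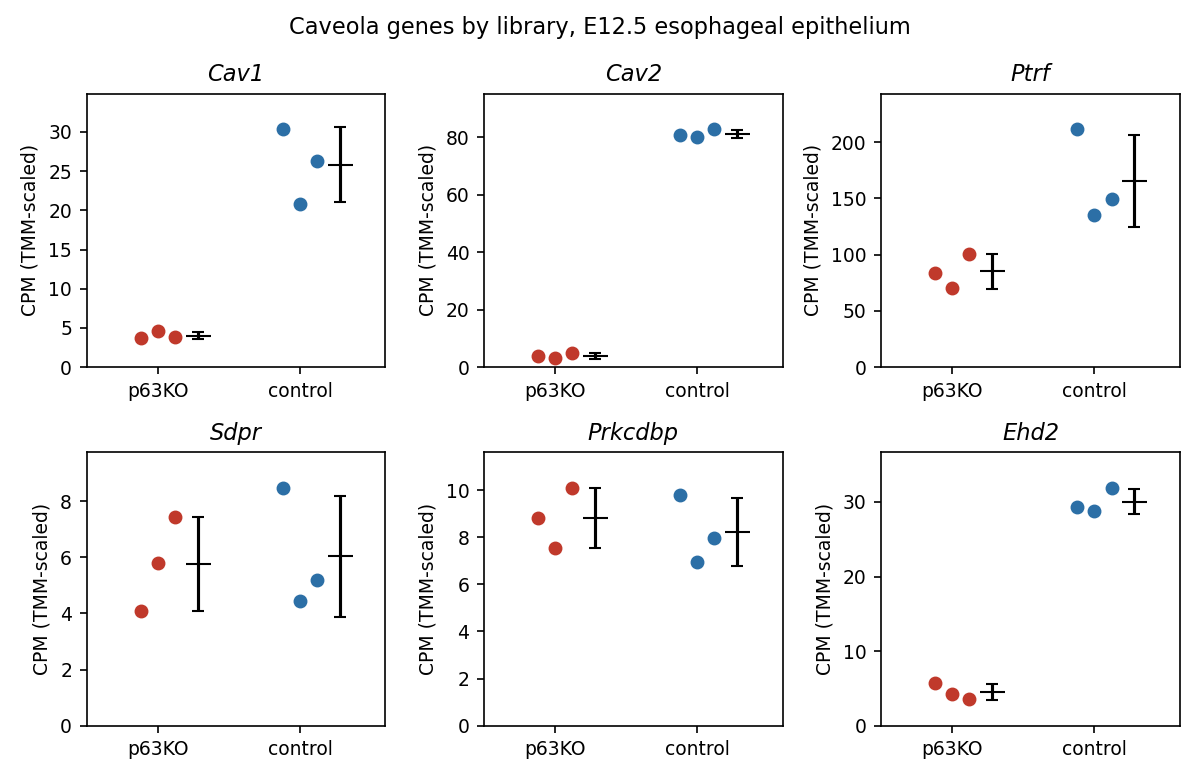
TMM-scaled CPM of the 6 caveola genes (y axes from 0, scaled per gene) in 3 p63KO libraries and 3 control libraries; points are libraries in replicate order and bars are mean ± SD. Cav2 lies between 3.12 and 4.98 CPM in p63KO and between 80.0 and 82.8 CPM in control, while the groups overlap for Sdpr and Prkcdbp.

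Levels were compared between the genes per kilobase of exon, with exon lengths of the GENCODE M21 annotation of GRCm38, whereas counts were made on mm9. In p63KO the order was Ptrf at 23.7 ± 4.25, Prkcdbp at 5.30 ± 0.77, Sdpr at 1.89 ± 0.55, Cav2 at 1.18 ± 0.28, Cav1 at 1.17 ± 0.14 and Ehd2 at 0.886 ± 0.20 CPM per kilobase (SD, n = 3). In control it was Ptrf at 46.1 ± 11.3, Cav2 at 24.3 ± 0.45, Cav1 at 7.50 ± 1.39, Ehd2 at 5.86 ± 0.33, Prkcdbp at 4.95 ± 0.86 and Sdpr at 1.98 ± 0.70 CPM per kilobase (SD, n = 3). Ptrf and Cav2 stood clear of the genes below them in control, whereas the library ranges of Cav1 and Ehd2, and of Ehd2 and Prkcdbp, overlapped, and Prkcdbp stood clear of Sdpr. In p63KO, Ptrf and Prkcdbp stood clear, and the ranges of Sdpr and Cav2, of Cav2 and Cav1, and of Cav1 and Ehd2 overlapped.

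The make-up of the summed caveola RNA per kilobase differed accordingly. Cav1 and Cav2 gave 3.52 ± 0.93% and 3.43 ± 0.28% of the sum in p63KO, against 8.24 ± 0.57% and 27.2 ± 4.0% in control (SD, n = 3 each). Ptrf gave 69.3 ± 1.77% in p63KO and 50.4 ± 4.39% in control, and Prkcdbp gave 15.6 ± 0.32% in p63KO and 5.44 ± 0.13% in control. Within the cavin coat there was 0.225 ± 0.0077 Prkcdbp per Ptrf in p63KO and 0.109 ± 0.0078 in control, both per kilobase. These shares restate the fold changes above and are no further evidence.

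**Figure D2:**
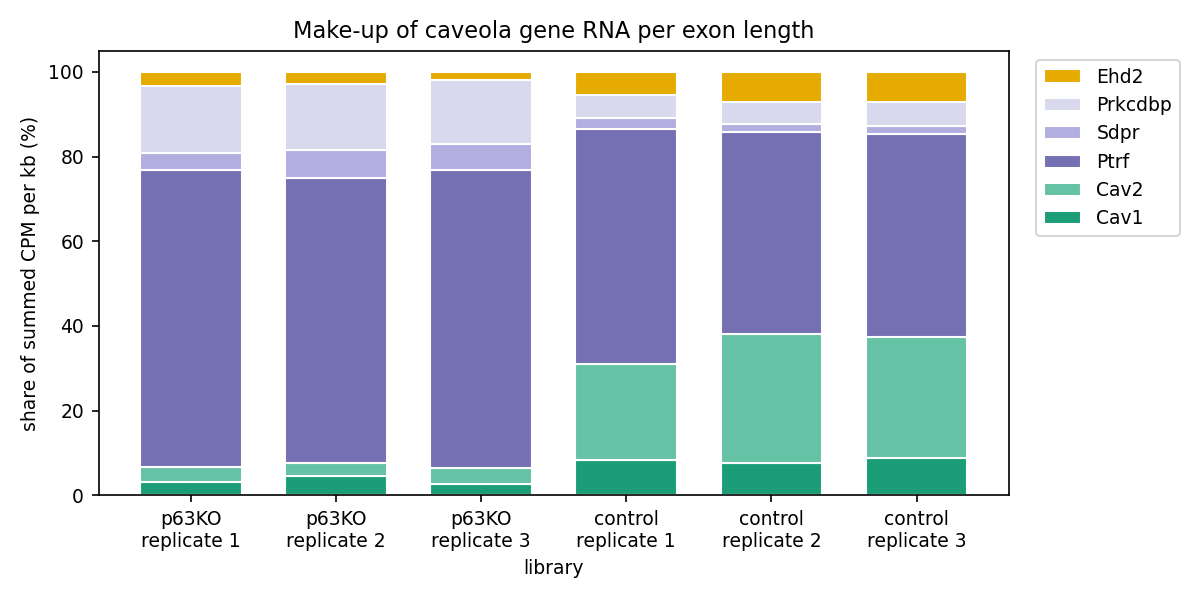
Share of each gene in the summed CPM per kilobase of exon of the 6 caveola genes (y axis, percent) for 3 p63KO and 3 control libraries (x axis). Cav2 takes between 3.20% and 3.74% in p63KO and between 22.8% and 30.4% in control, and Ptrf is the largest part of each bar.

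Replicates of a group also differed in their caveola genes. Control replicate 1 was above the control mean, on the log2 CPM scale, by 0.55 for Sdpr, 0.38 for Ptrf, 0.26 for Prkcdbp and 0.25 for Cav1. Cav2 and Ehd2 were at -0.01 and -0.03 in the same library. The smooth muscle marker sum of control replicate 1 was above the control mean by 0.52 on the same scale. In p63KO replicate 3, Sdpr, Cav2, Ptrf and Prkcdbp were above the p63KO mean by 0.41, 0.36, 0.26 and 0.21 and Ehd2 was at -0.29, while the smooth muscle sum was at -0.37 and the endothelial sum at 0.35. The 3 cavins thus had the same sign as one another in control replicates 1, 2 and 3 and in p63KO replicate 3. Sdpr went the other way from Ptrf in p63KO replicate 2, and in p63KO replicate 1 Sdpr was at -0.46 while Ptrf and Prkcdbp were close to the mean. With 6 libraries these are descriptions.

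**Figure D3:**
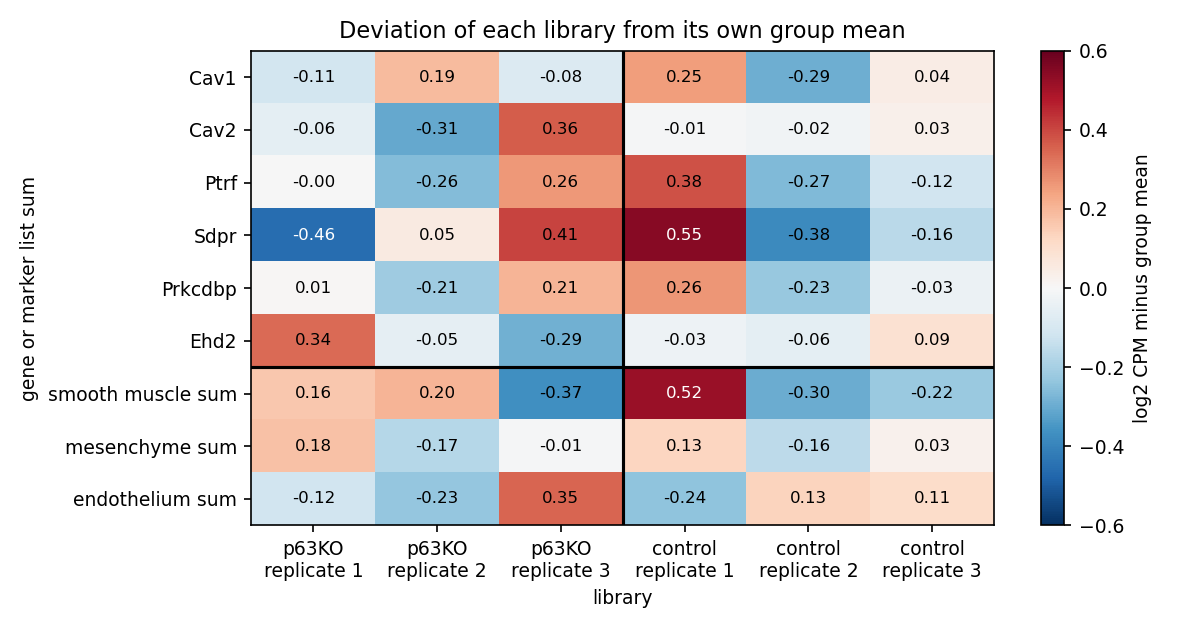
Deviation of each library from the mean of its own group (log2 CPM, colour and printed value) for the 6 caveola genes and for the summed markers of smooth muscle, mesenchyme and endothelium; columns are 3 p63KO and 3 control libraries. Control replicate 1 is high for Cav1, the cavins and the smooth muscle sum, and near 0 for Cav2 (-0.01) and Ehd2 (-0.03).

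Markers of caveola-rich cells were measured beside these genes. Of 10 smooth muscle markers, 6 fell (60%) in p63KO, none rose and 4 did not pass, beside 14.3% lower and 15.3% higher over all tested genes. The median log2 fold change of the markers was -1.14. Their sum was between 70.8 and 104.9 CPM in p63KO and between 158.5 and 279.5 CPM in control. Smtn, a smooth muscle actin-binding protein, fell by 0.87 on the log2 scale and Acta2, smooth muscle actin, fell by 1.29, and both calls held with any 1 library left out. Myh11, Cnn1 and Synpo2 also fell but lost the call without p63KO replicate 1, p63KO replicate 3 or control replicate 1, and Actg2 without p63KO replicate 3. Myh11 also lost the call by DESeq2 on all libraries. Control replicate 1 had the highest smooth muscle sum. Without it, the log2 fold change was -2.55 for Cav1, -4.38 for Cav2, -2.73 for Ehd2 and -0.74 for Ptrf. With all libraries it was -2.68, -4.37, -2.72 and -0.96 in the same order. The smooth muscle sums of control replicates 2 and 3, at 158.5 and 167.2 CPM, were still above that of each p63KO library. The part of smooth muscle RNA in the lower caveola genes was not tested.

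Endothelial RNA was low in both groups. The 16 endothelial markers summed to between 14.8 and 22.1 CPM in p63KO and between 17.1 and 22.2 CPM in control. Of the 8 tested none changed by edgeR, and none had an unadjusted p under 0.05 or was called by DESeq2 or limma-voom. Emcn and Flt1 had 1 and 4 counts over the p63KO libraries and 10 and 11 over the control libraries. The 6 adipocyte markers did not pass the edgeR filter on low counts. Adipoq had 1 count over the p63KO libraries and 3 over the control libraries, and Pparg, which other cells also express, had 5 over the p63KO libraries and 57 over the control libraries, 47 of them in control replicate 3. DESeq2, run without that filter, called 1 gene of this list.

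Of 15 mesenchyme markers, 3 rose (20%), 5 fell (33.3%) and 7 did not pass, beside 15.3% higher and 14.3% lower over all tested genes. The median log2 fold change of the markers was -0.81. Of the 5 that fell, Col1a1 and Col3a1, collagen genes, lost the call by DESeq2 and without p63KO replicate 2, p63KO replicate 3, control replicate 1 or control replicate 3. Foxf1a, a factor of gut mesenchyme, lost it without p63KO replicate 1, p63KO replicate 3, control replicate 1 or control replicate 2, and Pdgfra, a growth factor receptor, without control replicate 1, while Pdgfrb kept it in each of these fits. The 3 that rose were Tbx18, Dcn, a matrix proteoglycan, and Twist1, with log2 fold changes of 3.26, 2.94 and 1.33. They also kept the call in each of these fits. Dcn carried the sum of the list, which was between 1459 and 1854 CPM in p63KO and between 593.5 and 723.5 CPM in control. Of 10 markers of neurons and glia, 5 rose (50%) and none fell, beside the same shares over all tested genes. The sum of these markers was between 574.2 and 645.3 CPM in p63KO and between 160.5 and 170.1 CPM in control. The part of these cells in the caveola results was likewise not tested.

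The other genes of caveolae were also tested. Their list held 16 genes: the muscle caveolin and cavin, the remaining EHD proteins, pacsins and dynamins of the caveolar neck, filamin A, Ror1 and the kinases that phosphorylate Cav1. Of 15 tested, 1 rose (6.67%), 2 fell (13.3%) and 12 did not pass, beside 15.3% higher and 14.3% lower over all tested genes. The median log2 fold change was -0.08 against -0.01 over all genes. Src, the kinase that phosphorylates Cav1 on tyrosine, fell to 159.7 CPM in p63KO, against 241.8 CPM in control (log2 fold change -0.60, SE 0.08, edgeR adjusted p = 0.00035). Abl1, another such kinase, fell by 0.27 (SE 0.06) on the log2 scale, and Fyn, of the Src family, rose by 0.39 (SE 0.07). These kinases serve many pathways beside caveolae. Flna, which ties caveolae to actin and was the most abundant of the list, was at -0.15 (SE 0.06) and did not pass. Murc, the muscle cavin (Cavin4), was 2.67 ± 0.75 CPM in p63KO and 2.52 ± 0.10 CPM in control (SD, n = 3 each), and Cav3, the muscle caveolin, had no count in any library.

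Receptors and transporters reported to reside in caveolae or bind caveolin moved in both directions. Of 12 tested of 14 listed, 4 fell (33.3%), 2 rose (16.7%) and 6 did not pass, beside 14.3% lower and 15.3% higher over all tested genes. The median log2 fold change of the list was -0.06. Egfr, the receptor of epidermal growth factor, was 1.95, 1.87 and 2.45 CPM in p63KO libraries 1, 2 and 3, against 19.3, 17.7 and 26.4 CPM in the control libraries. The groups did not overlap, and Egfr fell by 3.34 on the log2 scale (SE 0.21, edgeR adjusted p = 4.58e-06), a difference of a size between those of Cav1 and Cav2. Pdgfrb, a growth factor receptor, and Scarb1, the lipoprotein receptor, fell, with log2 fold changes of -0.65 and -0.41. Tgfbr1, a TGF-beta receptor and the most abundant of the list, fell by 0.22 and lost the call without any 1 library other than control replicate 3. Cd36, a fatty acid transporter, rose by 1.61 (SE 0.46) and Slc7a1, an arginine transporter, by 0.24 (SE 0.07). Cd36 lost the call without p63KO replicate 3, control replicate 1 or control replicate 2, and Slc7a1 without p63KO replicate 3 or any 1 control library, so 0 genes of the list rose without p63KO replicate 3, control replicate 1 or control replicate 2 and 1 rose without control replicate 3. Nos3, the endothelial nitric oxide synthase that Cav1 inhibits, had 4 counts in each group and was not tested.

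Genes that supply cholesterol, the lipid caveolins bind, were tested as a further list. Of 22 tested of 23 listed, 5 rose (22.7%), 1 fell (4.55%) and 16 did not pass, beside 15.3% higher and 14.3% lower over all tested genes. The median log2 fold change of the list was 0.16. Insig1, a sterol sensor partner, rose by 0.56, Fdft1, squalene synthase, by 0.42 and Mvd, of the mevalonate pathway, by 0.40 on the log2 scale. Scap, the escort of the sterol-responsive factors, fell by 0.29 (SE 0.06). Insig1 lost the call without p63KO replicate 1, p63KO replicate 3 or control replicate 1; 3 genes of the list rose without p63KO replicate 1 or control replicate 1, and 2 fell without control replicate 1. Hmgcs1 was listed at 0 in all libraries.

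The clathrin coat serves the other major route of endocytosis, and flotillins scaffold membrane microdomains without caveolins. Among 28 such genes tested, 9 rose (32.1%), 3 fell (10.7%) and 16 did not pass, beside 15.3% higher and 14.3% lower over all tested genes. The median log2 fold change of the list was 0.11. Flot2, a flotillin, was 48.6, 44.5 and 51.3 CPM in p63KO libraries 1, 2 and 3, against 119.0, 111.3 and 100.5 CPM in the control libraries. The groups did not overlap, and Flot2 fell by 1.20 on the log2 scale (SE 0.08, edgeR adjusted p = 8.38e-06), while its partner Flot1 was at 0.02 (SE 0.09). Ap2a2, an adaptor subunit, and Itsn1, an endocytic scaffold, fell, with log2 fold changes of -0.39 and -0.31. Amph, the amphiphysin gene, rose by 0.92, Cltb, a clathrin light chain, by 0.88, Epn3, an epsin, by 0.63 and the clathrin heavy chain gene Cltc, the most abundant of the list, by 0.28 on the log2 scale. Without control replicate 2 or control replicate 3, 5 genes of the list rose.

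**Figure D4:**
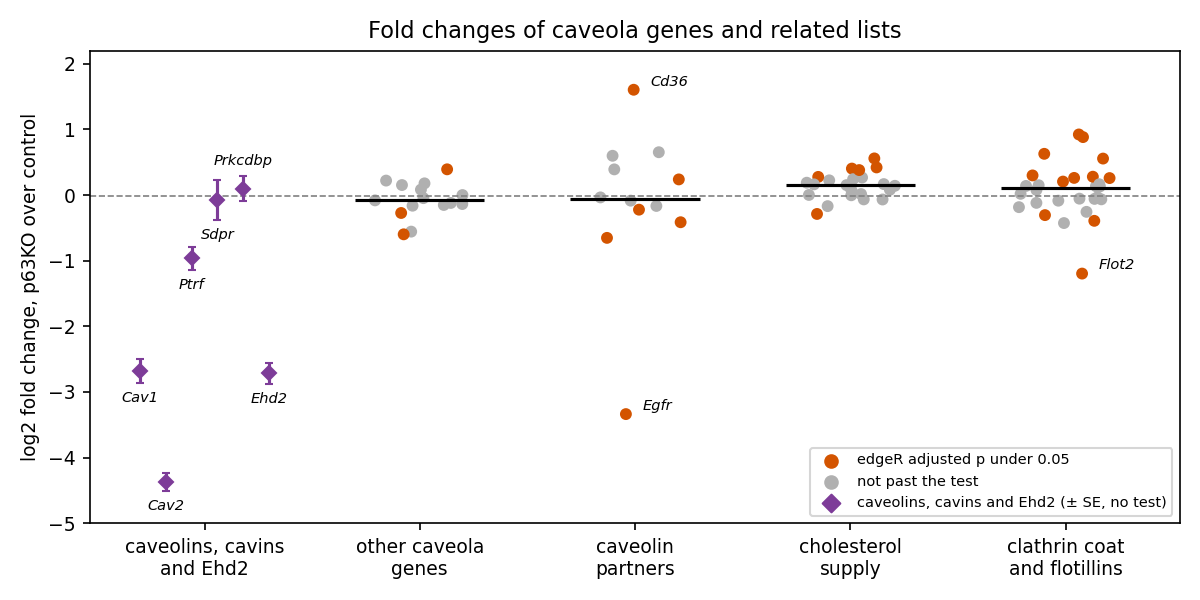
Log2 fold change of p63KO over control (y axis) for the 6 caveola genes (diamonds ± SE, no test) and for the tested genes of 4 lists (points, orange where the edgeR adjusted p was under 0.05); black bars are list medians and the dashed line is the median of all tested genes (-0.01). Cav1, Cav2 and Ehd2 lie below -2.5, Egfr at -3.34 and Flot2 at -1.20, while the list medians lie between -0.08 and 0.16.

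Genes with the most similar profile were sought among 10396 tested genes with at least 5 CPM on average, by the root mean square difference of log2 CPM over the 6 libraries after centring each gene. For Cav2 they were F3, the tissue factor of blood clotting, with a difference of 0.17, and Sfn, the keratinocyte 14-3-3 gene, with 0.22. F3 was 4.42 ± 1.01 CPM in p63KO and 86.9 ± 4.33 CPM in control (SD, n = 3 each). For Cav1 they were Pdzd2 (0.15) and the clock gene Npas2 (0.16), and for Ehd2 they were Ifitm3, an antiviral membrane protein (0.10), and Ptges, a prostaglandin E synthase (0.15). For Ptrf they were Cdc42ep3 (0.13) and Syn3 (0.13), for Sdpr Col25a1 (0.07) and Mfsd4 (0.19), and for Prkcdbp Nfib (0.04) and Spry2 (0.05). Among the caveola genes themselves, the closest pairs were Cav1 with Ehd2 (0.27) and Sdpr with Prkcdbp (0.28), and Cav2 was 0.92 from Cav1 and 2.25 from Prkcdbp. The profiles of Cav1, Cav2, Ehd2 and Ptrf are dominated by the difference between the groups. Those of Sdpr and Prkcdbp are not, as their log2 fold changes were -0.07 and 0.10 and their groups overlapped. Their likenesses rest on a small group difference and on the spread between replicates.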

How the data were processed

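RNA was sequenced from 3 p63KO and 3 control samples. The labels' protocols name a PicoPure kit for RNA and an Illumina TruSeq kit for libraries. The authors deposited raw counts per gene symbol. The submitters' processing notes name TopHat2 2.1.0, bcl2fastq 1.8.4, DESeq2 and the build mm9. The counter, its annotation and its strand setting were not given in the sources used here. Without them, overlapping or antisense genes cannot be told apart. Columns were tied to samples by the names in the sample descriptions.

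From these counts, edgeR 4.0.16 (R 4.3.3) gave the tests: filterByExpr (minimum count 10, minimum total count 15) left 13849 of 18572 genes with a count, libraries were scaled by TMM, and the quasi-likelihood test set p63KO against control, with Benjamini-Hochberg adjustment over all tested genes. The SE was the log2 fold change divided by the square root of F. A count of 3 was between 0.153 and 0.223 CPM. Replicates differed by more than sampling noise (chi-square per degree of freedom between 7.87 and 16.1).

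The caveola genes, the lists and the alternatives were chosen with earlier results of these data known. Named from each list were up to 3 genes past the test with the largest change in each direction and the most abundant gene, and for each caveola gene the 2 most similar genes. A gene that this rule names is not reported here. Others named were markers, paralogs, neighbours on the chromosome, or chosen after their values were seen. The tests were tried on simulated counts. Alternatives were DESeq2 1.42.0, limma-voom (limma 3.58.1), RLE scaling, testing without a filter, keeping genes at 1 CPM in 3 libraries, the replicate block and each library left out.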

Additional observations from a re-analysis of the deposited data

How the results depend on the processing

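Each log2 fold change of the 6 caveola genes moved by less than the pooled SD between replicates in the other fits on all libraries. These were DESeq2, limma-voom, RLE scaling, no filter, the filter of 1 CPM in 3 libraries and the replicate block. Dropping 1 of 3 libraries can hardly move a group mean by that SD, so those fits are given as values only. With 1 library left out, the log2 fold change lay between -4.56 and -4.21 for Cav2 and -2.82 and -2.55 for Cav1. It lay between -2.91 and -2.58 for Ehd2 and -1.10 and -0.74 for Ptrf. Sdpr (-0.29 to 0.26) and Prkcdbp (-0.01 to 0.24) changed sign. The number of genes that changed was 4098, between 4002 and 4082 in the other unblocked fits on all libraries, 4778 with the replicate number as a block, and between 3150 and 3771 with 1 library left out. The labels do not pair the samples. Deviations of same-numbered p63KO and control libraries from their group means correlated across genes by 0.153, 0.251 and 0.029 for numbers 1, 2 and 3. Between p63KO and control libraries of unlike number, the correlation lay between -0.213 and 0.06. Whether equal numbers mark shared litters cannot be told from these values, and the main fit had no block. With that block, 2 of the other caveola genes were higher instead of 1 (Dnm2 was added), Ap2s1 and Dab2 were also called in the clathrin list, and no call in the 4 lists was lost. With 1 library left out, 0 to 2 caveolin partners were higher, 3 to 5 cholesterol genes were higher and 1 or 2 lower, and 5 to 7 clathrin and flotillin genes were higher; fewer samples were fitted there. For 73 genes followed beside the caveola genes in 12 other fits each, 48 values lost the call, 5 gained it, 823 did neither, and none had the opposite direction of a call; DESeq2 lost Col1a1, Col3a1 and Myh11, and Grhl2, an epithelial marker, lost the call without any 1 library other than control replicate 3. At the depth of these libraries, Cav1, Cav2 and Ehd2 rest on 180, 175 and 207 counts over the p63KO libraries and on 1419, 4475 and 1652 over the control libraries.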
